A study of Homo sapiens with 12 samples.

Results

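H3K4me1 and H3K4me2 are histone H3 carrying 1 or 2 methyl groups on lysine 4, and their regions were compared in KBM-7 cells. All deposited intervals under either name were taken and joined within a mark where they overlapped or touched. This gave 42673 regions of H3K4me1 and 50132 of H3K4me2, 92805 of the 317369 regions in the 8 different interval sets of the series. The series holds 1 sequenced immunoprecipitation library for each of 9 marks in KBM-7, a human line derived from chronic myeloid leukaemia that holds most chromosomes in a single copy. The labels give no treatment, genotype or time course, and all libraries come from formaldehyde-crosslinked, sonicated chromatin of this line grown in IMDM with serum and antibiotics. The antibodies to both marks came from Abcam, and the labels name the same input for both libraries. With 1 library per mark no difference could be set against replicate error and no test was made. The files hold no reads, scores or signal, so the depth behind each region is unknown. Wilson 95% intervals, given in brackets after each share, cover counting error only and treat neighbouring loci as independent.

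Lysine 4 of histone H3 is methylated by the COMPASS-type enzymes, such as SETD1A and the KMT2 family, and demethylated by KDM1A and the KDM5 family. As background, trimethylation is found mostly at the starts of active genes, dimethylation around these starts and at enhancers, and monomethylation at enhancers, away from the starts of active genes. Regions of both marks were joined where they overlapped or touched into 57867 loci, the unit used below. A locus held both marks (a shared locus, 26617), H3K4me1 only (9438) or H3K4me2 only (21812). In a bulk population, both marks on the same chromosomes and each mark in different cells cannot be told apart.

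Promoters differed in sequence with the marks that lay on them. RefSeq promoter windows, which run from 250 bases before to 50 bases after a start of transcription, could be matched for 15812 of the 19974 protein-coding genes. Each window was classed by the marks on its own bases, not by the class of the locus it belongs to. H3K4me2 without H3K4me1 lay on 8880 windows (56.2%), both marks on 477 (3.02%), H3K4me1 alone on 73 (0.462%) and neither on 6382 (40.4%). The dinucleotide CG, which reads the same on both strands and is dense in CpG-island promoters, was counted in the 300 bases of each window. Its median count was 27 under H3K4me2 alone, 7 under both marks and 5 under H3K4me1 alone, beside 8 under neither mark and 22 over all windows. At least 15 CpG were held by 88.0% of the windows under H3K4me2 alone, 24.5% of those under both marks and 8.22% of those under H3K4me1 alone, against 65.5% of all windows. Promoters under H3K4me2 alone were thus mostly CpG-rich, and those with any H3K4me1 mostly CpG-poor.

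The contrast is shown by the 250 bases before the start in 5 genes of the lists used below, taken from RefSeq in the direction of the gene, with each CpG in capitals. They are the list members whose whole window lay under the mark or marks of its class and whose CpG count was nearest to the class median, at most 2 per class. For H3K4me1 alone there was only 1 such member.
GP9 (both marks; platelet glycoprotein; chr3:129060529-129060778, plus strand, GRCh38.p14): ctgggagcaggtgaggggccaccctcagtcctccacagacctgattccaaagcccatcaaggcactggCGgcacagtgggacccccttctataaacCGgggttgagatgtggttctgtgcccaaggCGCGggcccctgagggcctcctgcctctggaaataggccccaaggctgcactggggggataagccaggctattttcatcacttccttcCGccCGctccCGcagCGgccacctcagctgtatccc
S100A9 (both marks; calcium-binding protein of granulocytes and monocytes; chr1:153357604-153357853, plus strand): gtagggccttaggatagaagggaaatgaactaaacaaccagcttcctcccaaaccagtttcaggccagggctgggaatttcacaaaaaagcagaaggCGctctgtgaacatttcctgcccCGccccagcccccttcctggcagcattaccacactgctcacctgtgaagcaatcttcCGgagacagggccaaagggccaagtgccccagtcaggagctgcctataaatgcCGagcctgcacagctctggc
CAMP (H3K4me1 alone; antimicrobial peptide of neutrophil granules; chr3:48223245-48223494, plus strand): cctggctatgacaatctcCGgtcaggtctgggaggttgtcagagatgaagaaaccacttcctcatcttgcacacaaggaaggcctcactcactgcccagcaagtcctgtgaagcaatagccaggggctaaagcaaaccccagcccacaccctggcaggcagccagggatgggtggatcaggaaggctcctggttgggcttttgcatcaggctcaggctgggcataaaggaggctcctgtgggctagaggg
CXCR4 (H3K4me2 alone; receptor of the chemokine CXCL12; chr2:136118150-136118399, minus strand): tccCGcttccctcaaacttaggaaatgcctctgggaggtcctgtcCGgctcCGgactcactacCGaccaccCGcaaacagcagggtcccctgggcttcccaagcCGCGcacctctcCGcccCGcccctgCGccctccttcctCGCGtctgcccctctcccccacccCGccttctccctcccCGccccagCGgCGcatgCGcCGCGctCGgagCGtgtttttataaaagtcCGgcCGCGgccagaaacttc
DLG4 (H3K4me2 alone; scaffold of the postsynaptic density; chr17:7220051-7220300, minus strand): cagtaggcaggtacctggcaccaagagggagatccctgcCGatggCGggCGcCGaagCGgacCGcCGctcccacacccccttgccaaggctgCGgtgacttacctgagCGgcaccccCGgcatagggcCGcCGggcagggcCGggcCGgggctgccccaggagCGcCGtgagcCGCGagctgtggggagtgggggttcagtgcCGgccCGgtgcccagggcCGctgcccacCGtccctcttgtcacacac
The printed stretches hold 8, 4, 1, 24 and 22 CpG in this order. The windows of GP9 and CAMP carried neither H3K4me3 nor H3K27me3, the mark of Polycomb repression, and that of CXCR4 carried neither as well. The S100A9 window lay wholly under H3K27me3 and the DLG4 window wholly under H3K4me3. The start of GP9 used here lies 5934 bp inside the annotated span of that gene, one of 1519 starts (9.61% of 15812) more than 1 kb from the annotated end. The DLG4 window belongs to a wider locus of 7800 bp that reached the ends of 2 genes and held H3K4me1 elsewhere.

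Among the windows under H3K4me2 alone, 5901 also held H3K4me3 and 2979 did not. The CpG count was similar in these groups, with medians of 28 and 25, while H3K27me3 lay on 2.36% of the former and 29.6% of the latter. Of the 477 windows under both marks, 92 held H3K4me3 and had a median of 22 CpG, and the other 385 had a median of 6. None of the 73 windows under H3K4me1 alone held H3K4me3, which allows a share of up to 4.11%. Windows under both marks were therefore mostly CpG-rich with H3K4me3 and mostly CpG-poor without it. Shared loci are a different set: of 5413 within 1 kb of a start, 78.4% overlapped H3K4me3.

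Gene lists are set against the shares over all windows, 56.2% for H3K4me2 alone and 3.02% for both marks. Of 24 genes of cell cycle and DNA replication with a window, 23 had H3K4me2 alone, and CCNE1 (cyclin E1) had neither mark. Of 20 ribosomal protein genes 17 had H3K4me2 alone, and of 24 haematopoietic transcription factors 16 did, while CEBPE, a factor of late granulocyte development, had both marks. Of 25 developmental transcription factors, which pattern tissues in the embryo, 13 had H3K4me2 alone, a share near that of all windows, and 0 had both marks. H3K27me3 lay on 9 of the 13 windows, beside 11.5% of all windows under H3K4me2 alone. Both marks were seen on windows of 5 of 21 lymphocyte genes: CD3D and CD79A (antigen receptor signalling chains), LCK (a T cell kinase), NKG7 and PRF1 (cytotoxic granules). They were also seen at CD68, ITGAM and S100A9 of 22 granulocyte and monocyte genes, and at CD33, IL2RG and PTPRC of 22 signalling and surface genes of blood progenitors, and likewise at GAD1, SLC17A7 and TUBB3 of 20 neuronal genes and at GP9 and ITGA2B of 12 erythroid and megakaryocytic genes. The median CpG count was 8 for the lymphocyte list, 3.5 for the granulocyte and monocyte list and 29 for the cell cycle list. Of 18 liver genes 17 had neither mark, beside 40.4% of all windows, and the median CpG count of the liver list was 3.5. Neither mark was also seen at 13 of the 22 granulocyte and monocyte genes. For the erythroid and megakaryocytic list it was 9 of 12, with a median CpG count of 2.

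Regions of H3K4me2 were the wider ones. H3K4me2 regions had a median of 1200 bp (quartiles 750 and 1950) and H3K4me1 regions one of 750 bp (600 and 1200). The overlap with the other mark rose with width in both sets. Of H3K4me1 regions of 300 to under 600 bp, 60.5% (59.6 to 61.5) overlapped H3K4me2, and of those of 3000 bp or more, 99.3% (98.7 to 99.6) did. For H3K4me2 regions the same classes gave 36.5% (35.2 to 37.7) and 79.4% (78.2 to 80.5). A wide H3K4me2 region was thus more often without H3K4me1 than a wide H3K4me1 region without H3K4me2. Measured in sequence, 29.4 Mb lay under both marks, which was 68.0% of the 43.2 Mb of H3K4me1 and 37.8% of the 77.7 Mb of H3K4me2.

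Shared loci had a median width of 1800 bp (quartiles 1200 and 2700), H3K4me2-only loci one of 1050 bp (600 and 1650) and H3K4me1-only loci one of 600 bp (450 and 750). A shared locus joins at least 1 region of each mark, so its greater width follows in part from its definition. H3K4me1-only loci summed to 6.24 Mb, so 36.97 of the 43.2 Mb of H3K4me1 lay in shared loci, while 27.9 Mb of H3K4me2 lay in loci of its own. Width depended on position for 2 of the classes. At gene ends, within 1 kb of either annotated end of a protein-coding gene, shared loci had a median of 2400 bp and H3K4me2-only loci one of 1500 bp. Away from them the medians were 1650 bp inside and 1500 bp between genes for shared loci, and 750 bp in both places for H3K4me2-only loci. H3K4me1-only loci had a median of 600 bp in all 3 positions.

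**Figure D1:**
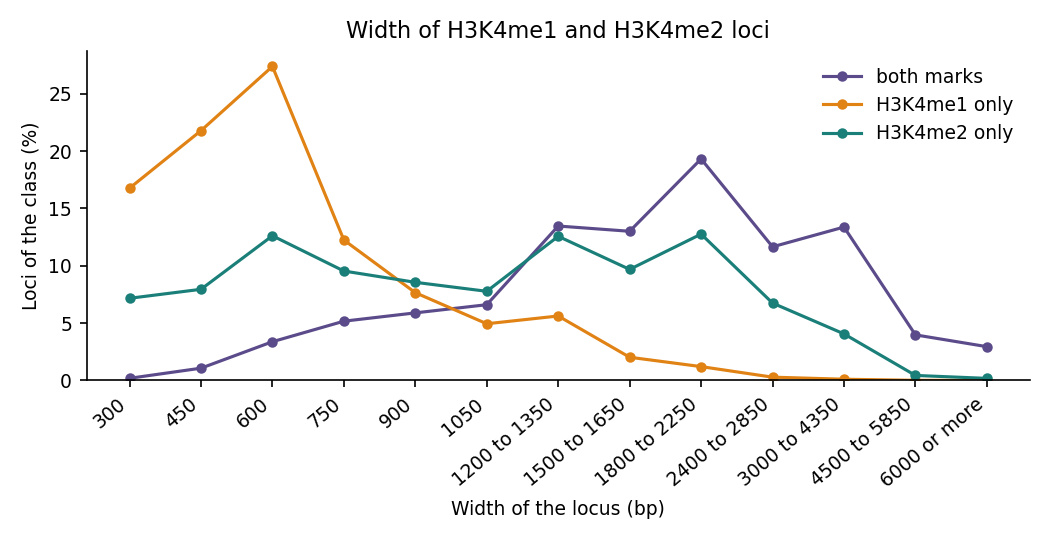
Share of the loci of each class (vertical axis, percent) in classes of width (horizontal axis, bp; the classes grow wider to the right and are not to scale). H3K4me1-only loci peak at 600 bp, H3K4me2-only loci are spread from 600 to 2250 bp, and shared loci are mostly of 1200 bp or more.

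The arrangement of the marks within shared loci turned over between gene ends and the rest of the genome. Most shared loci (75.8%) paired 1 region of each mark. At gene ends, H3K4me2 alone formed both outer flanks of 46.7% (45.5 to 47.8) of the 7243 shared loci and H3K4me1 alone those of 4.92% (4.44 to 5.44). All H3K4me1 lay inside H3K4me2 in 65.2% there, and all H3K4me2 inside H3K4me1 in 4.97%. H3K4me1 at gene ends was thus mostly a short stretch (median 750 bp) within a long one of H3K4me2 (2250 bp). Inside genes H3K4me1 alone formed both flanks in 21.5% (20.8 to 22.3) of 11357 shared loci and H3K4me2 alone in 12.5% (11.9 to 13.1). Nesting there was even, at 26.7% and 28.2%, and the marks covered similar lengths, with medians of 1200 bp of H3K4me1 and 1350 bp of H3K4me2. Loci between genes were close to those inside genes, with flanks of H3K4me1 alone in 20.03% and of H3K4me2 alone in 11.4%. Identical bounds were seen in 2.92% of all shared loci, and 308 shared loci held marks that touched without overlap.

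H3K4me2-only loci were the class at gene ends and H3K4me1-only loci the class away from them. Of H3K4me2-only loci 48.6% (47.9 to 49.2) lay at a gene end, of shared loci 27.2% (26.7 to 27.7) and of H3K4me1-only loci 4.75% (4.34 to 5.19). Inside genes, away from their ends, lay 26.4%, 42.7% and 59.3% in the same order, and between genes 25.1%, 30.1% and 35.96%. In genes with a known strand these ends were mostly starts for H3K4me2-only and shared loci, and mostly far ends for H3K4me1-only loci. Within 1 kb of a start lay 40.8% of H3K4me2-only, 20.3% of shared and 1.17% of H3K4me1-only loci, whereas 1.42%, 2.491% and 2.501% were near a far end and no start. Because the distance was taken from the nearer edge, wide loci reach a gene end more easily, and from the midpoint the shares at gene ends were 35.9%, 13.97% and 3.54%, in the same order. With a window of 2.5 kb they were 53.4%, 32.3% and 10.6%, and over the ends of only the 8947 genes with no other within 5 kb 23.2%, 10.2% and 1.85%. The median distance to the nearest gene end was 1395 bp for H3K4me2-only, 10052 bp for shared and 19312 bp for H3K4me1-only loci.

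Away from gene ends the classes were at similar distances. Inside genes the median distance was 16798 bp for H3K4me2-only, 19585 bp for shared and 20926 bp for H3K4me1-only loci, and between genes it was 26154, 21792 and 21304 bp. Along the genes, measured from the start in percent of the length, the median place was 35.8 for H3K4me2-only, 39.9 for shared and 42.1 for H3K4me1-only loci. The first 20% of the gene length held 31.8%, 25.4% and 22.8% of them. All 3 classes were thus placed toward the start of genes, H3K4me2-only loci somewhat more so. Exons and introns were not analysed here.

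Single-mark loci stood at different distances from the mark they lacked. The gap from an H3K4me1-only locus to the nearest H3K4me2 region had a median of 3600 bp, and 23.9% (23.1 to 24.8) were within 1 kb of one. The gap from an H3K4me2-only locus to the nearest H3K4me1 region had a median of 15750 bp, and 8.02% (7.67 to 8.39) were within 1 kb. H3K4me2-only loci at gene ends were similarly far from H3K4me1, with a median gap of 13800 bp.

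The share of H3K4me2 regions with H3K4me1 was higher where KBM-7 holds 2 copies of a chromosome. Chromosome 8 and the stretch of chromosome 15 from 61 to 90 Mb are known to be disomic in KBM-7, which the labels do not state. On chromosome 8, 77.5% of H3K4me2 regions overlapped H3K4me1, and in the disomic stretch of chromosome 15 81.9% did. The rest of chromosome 15 gave 53.7%, and the 21 other chromosomes gave 46.2% to 60.995%. H3K4me2-only loci made up 18.1% (16.6 to 19.7) of loci on chromosome 8 and 14.6% (12.5 to 16.9) in the disomic stretch, against 33.7% to 46.1% on the 21 chromosomes. H3K4me1-only loci were also more frequent there, at 21.6% and 22.7% against 11.5% to 18.7%. H3K4me1 regions had a median width of 1500 bp in both disomic stretches and of 600 to 750 bp on the 21 chromosomes, and H3K4me2 regions one of 1800 bp against 1050 to 1350 bp. Covered H3K4me1 sequence per covered H3K4me2 sequence was 0.895 and 0.982 there, against 0.404 to 0.608. The overlap seen from H3K4me1 did not stand apart in this way, at 75.6% and 75.3% against 72.2% to 82.2%. How far copy number, and with it reads per base, sets the share of H3K4me2-only loci elsewhere was not tested. Without both stretches 54.4% of H3K4me2 regions overlapped H3K4me1, and no class changed its order in width or position.

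**Figure D2:**
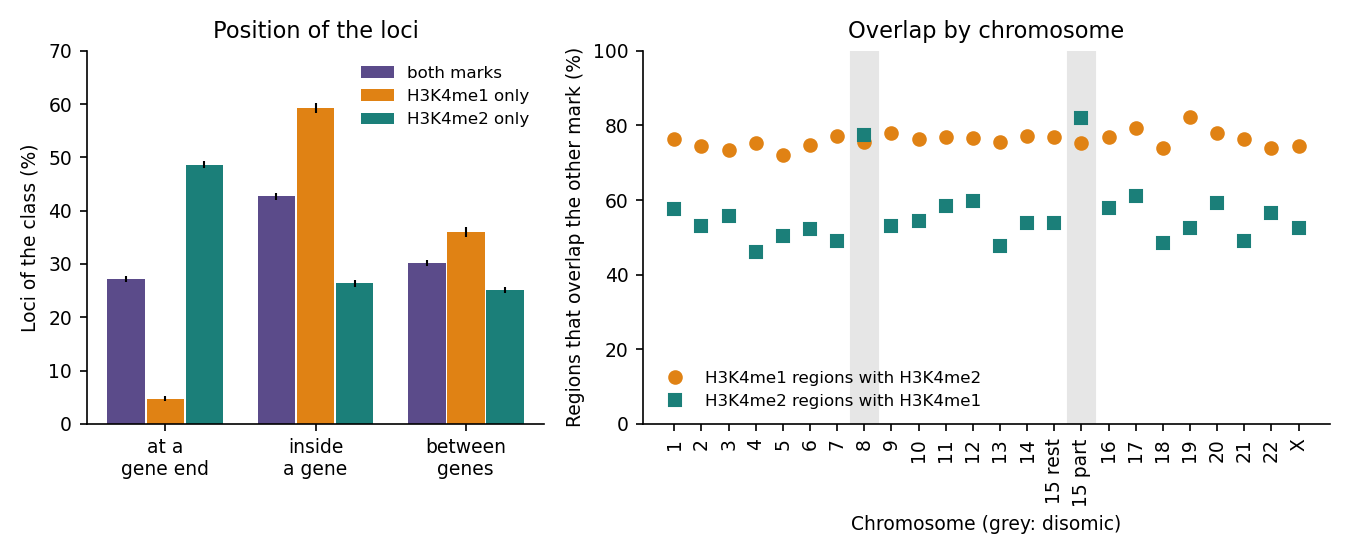
Left, share of loci of each class (percent) at a gene end, inside a gene and between genes, with Wilson 95% intervals as bars. Right, share of the regions of each mark that overlap the other mark (percent) by chromosome, with the disomic chromosome 8 and stretch of chromosome 15 in grey; there the H3K4me2 regions reach 77.5% and 81.9%, against 46.2% to 60.995% on the 21 other chromosomes.

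Around starts of transcription H3K4me1 and H3K4me2 occupied nested zones. The 15812 starts were divided by H3K4me3 within 1 kb, which 8485 had. At these, H3K4me2 covered 86.3% of the sequence 500 to 750 bp before the start, 60.7% of the first 250 bp after it and 94.4% of the stretch from 750 to 1000 bp after it. H3K4me1 covered 0.456% of the first 250 bp and reached 12.5% at 1250 to 1500 bp before and 18.1% at 1500 to 1750 bp after the start. H3K4me2 thus dipped around the start, H3K4me3 was highest just downstream of it at 250 to 500 bp (88.9%), and H3K4me1 lay farther out on both sides and more often downstream. Within 3 kb, H3K4me2 lay on both sides of 97.1% (96.7 to 97.4) of these starts. H3K4me1 lay only downstream of 25.7% (24.8 to 26.7), only upstream of 14.97% (14.2 to 15.7) and on both sides of 16.4% (15.6 to 17.2). The base of the start itself was under H3K4me2 in 56.7% and under H3K4me1 in 0.483%.

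The 7327 starts without H3K4me3 had another shape. H3K4me2 was highest at the start, covering 24.2% of the first 250 bp, and showed no dip. H3K4me1 stayed between 2.63% and 4.54% within 2 kb and covered 3.39% of the first 250 bp. At these starts 3.38% (2.99 to 3.82) had H3K4me1 over the start, against 0.483% (0.356 to 0.655) where H3K4me3 was near. No start on chromosome 8 entered these values.

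**Figure D3:**
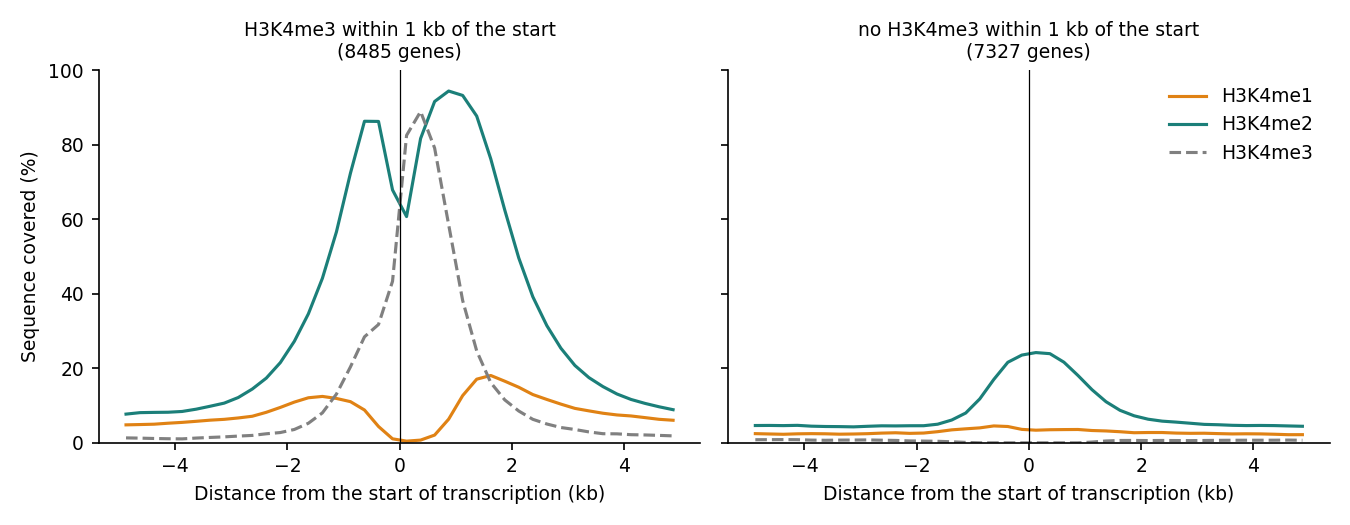
Mean share of sequence covered (percent, vertical axis) by H3K4me1, H3K4me2 and H3K4me3 in bins of 250 bp from 5 kb before to 5 kb after the start of transcription (horizontal axis, kb), for starts with (left) and without (right) H3K4me3 within 1 kb. The H3K4me3 line follows from how the starts were divided; H3K4me2 has 2 maxima beside the start on the left and 1 at the start on the right, and H3K4me1 is lowest at the start on the left.

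The other marks also differed between the classes. At gene ends H3K4me3 overlapped 70.1% (69.0 to 71.2) of shared and 60.6% (59.6 to 61.5) of H3K4me2-only loci, and 0 of 448 H3K4me1-only loci, which allows a share of up to 0.67%. H3K9ac, an acetylation of active promoters, overlapped 80.1%, 72.4% and 0.893% in the same order, and H3K79me2, laid down along transcribed genes, 54.8%, 33.7% and 2.23%. H3K27me3 ran the other way, at 4.32% of shared and 16.3% of H3K4me2-only loci. H3K36me3, a mark of transcribed gene bodies, overlapped 23.4%, 10.5% and 17.9%. Of the H3K4me1-only loci at gene ends 72.1% held none of the 6 other sets. As the classes differed in how many of these ends were starts, loci within 1 kb of a start were also taken alone. There H3K4me3 overlapped 78.4% (77.3 to 79.5) of 5413 shared, 63.5% (62.4 to 64.4) of 8892 H3K4me2-only and 0 of 110 H3K4me1-only loci, which allows a share of up to 2.73%, and none of the 6 sets overlapped 82.7% (74.6 to 88.7) of the latter. Near a far end and no start, H3K4me3 overlapped 14.3% of 663 shared, 19.0% of 310 H3K4me2-only and 0 of 236 H3K4me1-only loci, and H3K36me3 24.9%, 12.9% and 26.3%. H3K4me3 was thus not seen on an H3K4me1-only locus at either kind of end.

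More than 2 kb from every gene end, acetylation and H3K4me3 were all but absent from H3K4me1-only loci, and H3K27me3 was most frequent on H3K4me2-only loci. H3K4me1-only loci were also the narrowest class. H3K27ac, found at active enhancers and promoters, overlapped 5.91% of shared, 1.09% of H3K4me2-only and 0.0811% of H3K4me1-only loci there. H3K27me3 overlapped 8.26% of shared, 7.56% of H3K4me1-only and 22.6% of H3K4me2-only loci. H3K4me3 was seen on 4.95%, 0.324% and 9.99% of shared, H3K4me1-only and H3K4me2-only loci, and H3K9ac on 15.2%, 0.533% and 16.2%. H3K79me2, at 16.1%, 13.6% and 11.8%, and H3K36me3, at 8.44%, 11.6% and 5.21%, were thus seen on H3K4me1-only loci no less often than on H3K4me2-only loci. The intervals under H3K36me3 are the same as those under H4K16ac and cannot be assigned to either. None of the 6 sets overlapped 60.7% of shared, 70.4% of H3K4me1-only and 53.1% of H3K4me2-only distal loci.

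**Figure D4:**
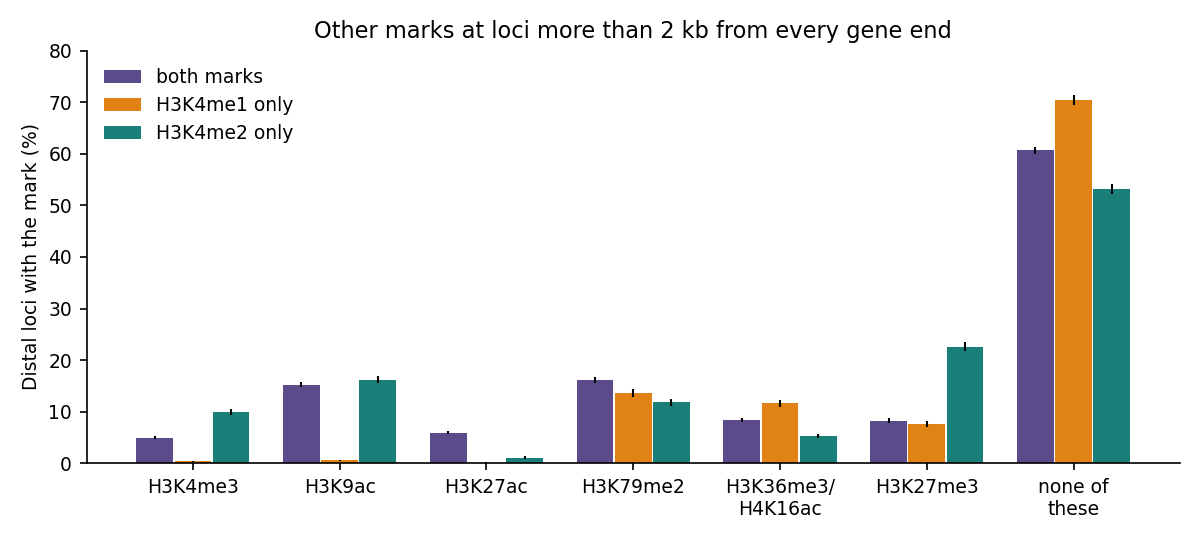
Share of loci more than 2 kb from every gene end (percent, vertical axis) that overlap each other mark, for shared, H3K4me1-only and H3K4me2-only loci, with Wilson 95% intervals as bars. H3K27me3 is highest on H3K4me2-only loci (22.6%), and H3K27ac on shared loci (5.91%).

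Since shared loci are wider, distal loci were also compared within classes of covered H3K4me2. With 1500 bp or more of H3K4me2, H3K27ac overlapped 13.5% (12.8 to 14.3) of 7715 shared and 5.75% (4.72 to 6.99) of 1618 H3K4me2-only loci. In the 3 narrower classes, from 300 bp upward, H3K27ac was rare, on 0.0666%, 0.0582% and 0.757% of shared and on 0.185%, 0.209% and 0.317% of H3K4me2-only loci, so shared loci were above H3K4me2-only loci only from 900 bp on. H3K27me3 overlapped 5.61% of the shared and 22.5% of the H3K4me2-only loci with 1500 bp or more and, in the 3 narrower classes, 9.45%, 9.80% and 10.6% of shared and 17.4%, 22.8% and 27.4% of H3K4me2-only loci. The excess of H3K27me3 on H3K4me2-only loci was therefore present in every class of covered H3K4me2. A shared locus can be wider than its covered H3K4me2, so the classes were not matched in locus width. H3K4me3 was on 10.7% of shared and 44.0% of H3K4me2-only loci with 1500 bp or more of H3K4me2. H3K4me3, as a rule a mark of starts, was thus frequent on wide H3K4me2-only loci more than 2 kb from every annotated protein-coding end. Starts inside an annotated span were not excluded, and 1519 of 15812 starts lay more than 1 kb from the annotated end. With 300 to under 600 and 600 to under 900 bp of H3K4me2, H3K4me3 was on 0.533% and 0.320% of shared loci. These shared loci thus held H3K4me3 and H3K27ac about as rarely as distal H3K4me1-only loci did (0.324% and 0.0811%).

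Genes were then assigned to loci by the nearest annotated gene end, so a locus inside a long gene can be assigned to a neighbour. A shared locus was nearest to 52.1% of the 19974 protein-coding genes, an H3K4me1-only locus to 25.2% and an H3K4me2-only locus to 58.7%. Loci over the ends of 2 or more genes (1011 in all) were counted for 1 of them. All 339 list entries were found in the annotation. The label was checked against 10 regulators and markers of blood progenitors and myeloid cells, of which 9 had a shared locus and LYL1 was nearest to no locus of any class. Of 27 liver genes 15 were nearest to no locus, beside 4289 of all 19974 genes, and 5 had a shared one. A gene without a locus can still carry a mark, since each locus was counted for 1 gene. The windows of CD68 and IL2RG lay under both marks, yet 0 loci were counted for either gene. Long genes can collect more loci, so the median gene length is given with each list. It was 24170 bp over all genes and 13640 bp for the liver list.

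Haematopoietic transcription factors had many loci with H3K4me1. Of 28 factors 23 (82.1%) had a shared locus, 17 (60.7%) an H3K4me1-only and 19 (67.9%) an H3K4me2-only one, beside 52.1%, 25.2% and 58.7% of all genes. The medians were 4.5, 1.5 and 1.5 loci per gene, beside 1, 0 and 1 over all genes. The median length of these factors was 23568 bp. Of their 353 loci 56.7% were shared, 22.9% H3K4me1-only and 20.4% H3K4me2-only, beside 46.0%, 16.3% and 37.7% over all genes. H3K27ac overlapped 17.0% of their shared loci, beside 7.67% of all shared loci. ETV6, a repressor of the ETS family, had 31 shared, 19 H3K4me1-only and 1 H3K4me2-only loci. RUNX1, a core factor of blood stem cells, had 25, 14 and 13, and ZEB2 19, 9 and 5. LMO2 had 12, 3 and 2, and MYB 12, 5 and 1. KLF4, a factor of monocytes and epithelia, had 9 loci, all H3K4me2-only, and 6 held H3K27me3. Only 2 of the 9 lay at a gene end, and the others lay between genes. SPI1, which directs myeloid fate, had 4 loci, all shared. The one over an annotated end of SPI1 spanned 5850 bp, with 5550 bp of H3K4me2, 2700 bp of H3K4me1, 2400 bp of H3K4me3 and 1950 bp of H3K27ac.

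Signalling and surface genes of blood progenitors followed the same pattern. Of 28 genes 25 (89.3%) had a shared, 22 (78.6%) an H3K4me1-only and 20 (71.4%) an H3K4me2-only locus, beside 52.1%, 25.2% and 58.7% of all genes. Their median length was 29548 bp, and H3K27ac overlapped 21.3% of their shared loci, beside 7.67% of all shared loci. PTPRC, the leukocyte phosphatase CD45, had 18 shared, 10 H3K4me1-only and 9 H3K4me2-only loci. CD34, the surface marker of blood progenitors, had 12, 3 and 1. Its widest shared locus (chr1:207901951-207913650) spanned 11700 bp over the annotated end at the start side, with 10650 bp of H3K4me2, 7050 bp of H3K4me1 and 4050 bp of H3K4me3. A locus at chr1:207917101-207925800, 5976 bp away from the gene, held 8250 bp of H3K4me1, 7050 bp of H3K4me2 and 2400 bp of H3K27ac, and no H3K4me3. H3K4me3 was thus absent from the outer of these wide loci, where H3K4me1 was the longer mark. KIT, the stem cell factor receptor, had 4 shared and 2 H3K4me2-only loci and none with H3K4me1 only.

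Genes of the BCR-ABL1 and STAT5 pathway, which drives growth in chronic myeloid leukaemia, had a median length of 72789 bp, beside 24170 bp over all genes. Of 26 genes 25 (96.2%) had a shared, 18 (69.2%) an H3K4me1-only and 21 (80.8%) an H3K4me2-only locus, beside 52.1%, 25.2% and 58.7% of all genes. DUSP6, a phosphatase that limits ERK signalling, had 15, 6 and 3, and the adaptor GAB2 11, 9 and 3. PIM1, a kinase gene activated by STAT5, had 9, 5 and 1. CCND2 (cyclin D2) had 7, 3 and 7, and 8 of its 17 loci held H3K27me3. DUSP6, GAB2 and PIM1 had no locus with it. Over the whole list H3K27me3 lay on 5 of 125 shared, 0 of 47 H3K4me1-only and 4 of 48 H3K4me2-only loci.

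In the list of granulocyte and monocyte genes H3K4me1-only loci made up a larger share than over all genes. Of 28 genes 15 had a shared, 12 an H3K4me1-only and 14 an H3K4me2-only locus, shares near the background of 52.1% and 58.7% for shared and H3K4me2-only loci and above the 25.2% for H3K4me1-only loci. Their median length was 14566 bp, and of their 83 loci 28.9% were H3K4me1-only, beside 16.3% of all loci. The liver list had nearly the same share, 28.6% of its 21 loci, though only 5 of its 27 genes had an H3K4me1-only locus. CYBB, the phagocyte oxidase subunit, had 8 shared, 6 H3K4me1-only and 1 H3K4me2-only loci, with 18450 bp of H3K4me1 against 12150 bp of H3K4me2 and no H3K4me3 or H3K27ac in any of the 15. MPO, the myeloperoxidase of promyelocytes, had a shared locus over an annotated end (chr17:58280251-58286100). This locus held 5850 bp of H3K4me1, 4350 bp of H3K4me2, 300 bp of H3K27ac and no H3K4me3. H3K4me1 was the longer mark at both CYBB and MPO. In the list, H3K4me2 was the longer one at 13 of the 21 genes with any locus and H3K4me1 at 7 (33.3%, beside 10.1% of all genes with a locus). In the liver list H3K4me1 was the longer mark at 4 of 12 genes with a locus, also 33.3%. TLR4, which binds bacterial lipopolysaccharide, had 6, 2 and 6 loci, 6 of them with H3K27me3.

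Among other blood lineages, 22 of 32 lymphocyte genes had a shared, 11 an H3K4me1-only and 18 an H3K4me2-only locus, and 16 of the 36 H3K4me2-only loci (44.4%, beside 19.4% over all genes) held H3K27me3. The median length of this list was 26829 bp, and its shares of genes were 68.75%, 34.4% and 56.25%, beside 52.1%, 25.2% and 58.7% over all genes. GATA3, a factor of T cells and several epithelia, had 3 shared, 1 H3K4me1-only and 6 H3K4me2-only loci, 9 of the 10 with H3K27me3. PAX5, the B cell factor, had 5, 4 and 3, and 1 of the 12 held it. Of 28 erythroid and megakaryocytic genes 12 had a shared, 6 an H3K4me1-only and 11 an H3K4me2-only locus, all below the shares over all genes, at a median length of 13843 bp. TFRC, the transferrin receptor used by all dividing cells, had the most loci of that list with 5, 2 and 5.

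Developmental transcription factors lay at the opposite end. Of 40 genes 35 (87.5%) had an H3K4me2-only locus, 13 (32.5%) a shared and 3 (7.5%) an H3K4me1-only one, at a median length of 6752 bp. Over all genes these shares were 58.7%, 52.1% and 25.2%. Of the 111 loci of this list 75.7% were H3K4me2-only, beside 37.7% of all loci. Of these 84 H3K4me2-only loci 52 (61.9%) held H3K27me3, beside 19.4% of all H3K4me2-only loci. LHX2, a LIM homeobox factor of the forebrain, had 6 loci, all H3K4me2-only and each wholly under H3K27me3; the one over its start spanned 2100 bp (chr9:124010851-124012950). PAX2, a factor of kidney and eye, had 5 H3K4me2-only loci and 1 shared one, all with H3K27me3. Other members had H3K4me2 alone without H3K27me3: PAX6, of eye and pancreas, had 5 H3K4me2-only loci and TBX2, a T-box factor, also 5, none under H3K27me3. DLX2 went against the list with 7 shared, 2 H3K4me1-only and 4 H3K4me2-only loci counted for it and no H3K27me3. Of these, only 1 shared and 1 H3K4me2-only locus lay at a gene end. The others lay between genes, 50151 bp or more from DLX2. Neuronal genes, at a median length of 79414 bp, had an H3K4me2-only locus in 18 of 28, a shared one in 11 and an H3K4me1-only one in 4, and 20 of their 25 H3K4me2-only loci held H3K27me3. GRIN1, a glutamate receptor subunit, had 3 shared and 4 H3K4me2-only loci, 4 of the 7 with H3K27me3.

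**Figure D5:**
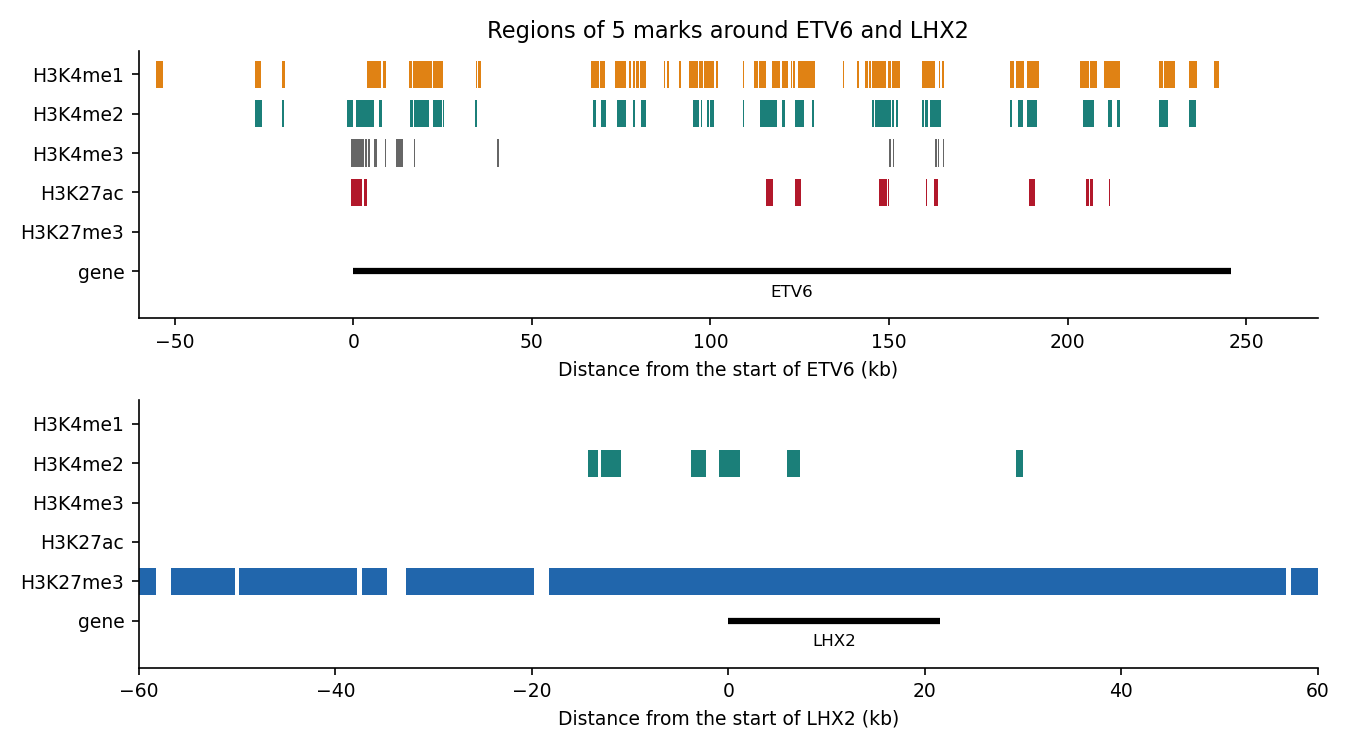
Regions of H3K4me1, H3K4me2, H3K4me3, H3K27ac and H3K27me3 as blocks along the distance from the start of ETV6 (top) and LHX2 (bottom) in kb, with the annotated gene as a black line. ETV6 holds H3K4me1 and H3K4me2 along its length with H3K27ac at some loci and no H3K27me3; LHX2 holds 6 H3K4me2 regions and no H3K4me1 within H3K27me3.

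In the cell cycle and ribosomal lists, H3K4me1-only loci were nearest to no larger a share of genes than over all genes. Of 28 cell cycle and replication genes 21 had an H3K4me2-only, 16 a shared and 6 an H3K4me1-only locus, at a median length of 18340 bp. CDK6, a kinase of early cell cycle progression, had 8 shared, 1 H3K4me1-only and 2 H3K4me2-only loci, the most shared loci of the list. MKI67, the proliferation antigen, had 1 shared, 2 H3K4me1-only and 7 H3K4me2-only loci. Only 2 of the MKI67 loci, both H3K4me2-only, lay at a gene end, and the others lay between genes. At PCNA, the sliding clamp of DNA replication, a shared locus of 5100 bp lay wholly under H3K4me2 and held 1350 bp of H3K4me1. Of 26 ribosomal protein genes, with a median length of 5842 bp, 19 (73.1%) had a shared and 18 (69.2%) an H3K4me2-only locus, and 4 (15.4%) an H3K4me1-only one. The enzymes that write and erase H3K4 methylation had a shared and an H3K4me2-only locus in 16 of 20 each and an H3K4me1-only one in 7, at a median length of 45717 bp. KMT2C, which adds the first methyl group at enhancers, had 4 shared, 3 H3K4me1-only and 7 H3K4me2-only loci, the core subunit WDR5 7, 3 and 3, and the demethylase KDM1A 6, 1 and 3.

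Over all protein-coding genes, 4 were among the 10 with the most loci for both the shared and the H3K4me1-only class. JARID2, a partner of Polycomb repressive complex 2, led both with 42 shared and 26 H3K4me1-only loci, and had 7 with H3K4me2 only. ETV6, ZMIZ1 (a transcriptional coactivator; 36, 18 and 3) and RUNX1 were the others among the 10 leading genes of both classes. BCOR, a corepressor, had 36 shared, 12 H3K4me1-only and 5 H3K4me2-only loci. ARHGAP26 had 21, 19 and 4, and CLEC16A 19, 13 and 2, with 40950 bp of H3K4me1 and 24600 bp of H3K4me2. Most of these genes are long, from 126 kb for BCOR to 458.6 kb for ARHGAP26. The leading genes by H3K4me2-only loci were MEF2C, a MADS-box factor, with 16 beside 13 shared and 4 H3K4me1-only loci, and TRIM27 with 15 beside 2 and 1. The loci nearest to TRIM27 held 38100 bp of H3K4me2 and 1350 bp of H3K4me1, mostly outside the gene, which is 20.98 kb long. Only 1 of the 15 H3K4me2-only and 1 of the 2 shared loci lay inside any protein-coding gene or at a gene end. RUNX1 was the only gene among the 10 leading ones of all 3 classes.

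The widest loci showed the same division of lengths. The widest shared locus (chr12:9760951-9789150), 50 bp from an end of CD69, an early activation antigen of leukocytes, was 28200 bp long and wholly under H3K4me2, with 2100 bp of H3K4me1 and 5550 bp of H3K27ac. The next, near VSIG4 (chrX:65996701-66020700, 24000 bp), held 15750 bp of H3K4me1 and 12900 bp of H3K27ac, and the third, near HDAC7 (chr12:47799151-47819400, 20250 bp), 17400 bp of H3K4me1. A very wide shared locus could thus be mostly free of H3K4me1 or mostly under it. The widest H3K4me2-only locus lay inside a gene with the end of SAMSN1 nearest (chr21:14518351-14531100, 12750 bp) and held 5550 bp of H3K4me3. The next widest pair, of 11400 and 11100 bp (chr4:116319001-116330400 and chr4:116344201-116355300), lay 753154 and 728254 bp from the nearest protein-coding end, that of TRAM1L1, and held 3750 and 3000 bp of H3K4me3. The 3 widest H3K4me1-only loci were 3300 bp each and lay near RACGAP1 on chromosome 12 and near LAPTM4B and GSDMC on chromosome 8, none with H3K4me3, H3K9ac or H3K27ac. Chromosome 8 is disomic, and its H3K4me1 regions were wider than elsewhere, with a median of 1500 bp.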

How the data were processed

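One library was sequenced for each of 9 histone marks in KBM-7 cells, with 3 inputs. The authors deposited called intervals on GRCh38 (chromosome, start, end and mark), without counts, scores or signal. Tools named in the submitters' processing notes are cutadapt, Bowtie2 and MACS, with the build GRCh38. Their versions, thresholds and roles, and the input behind each call, were not given in the sources used here. Depth is therefore unknown.

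Starts of both marks lie on a grid of 150 bp counted from 1 and were converted. Chromosomes 1 to 22 and X were used. Intervals of a mark were joined where they overlapped or touched, and loci are the union of both marks. H3K36me3 and H4K16ac, which have the same intervals, were treated as 1 set. The 71741 intervals under 1 label that matches no sample were not used. Genes and promoter windows came from RefSeq tables of GRCh38.p14. Strand and start come from the promoter table (1 entry per gene), which holds 15812 of 19974 protein-coding genes and none on chromosome 8.

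The members and gene lists were chosen with earlier results of these data known. Genes named are the 10 with the most loci of each class, the nearest genes of the 3 widest loci of each class and, for each list, up to 3 members with the most loci of each class. Other genes were named after their values were seen: those named by the state of their promoter, the printed promoters, KIT, LYL1, LMO2, MYB, SPI1, MPO, PCNA, TBX2, KDM1A and TFRC where the rule did not take them. Python 3.11.15 with numpy 2.4.6, pandas 2.3.3, scipy 1.17.1 and matplotlib 3.10.9 was used, and the interval functions were tested on simulated data. Alternatives were the required overlap, joining over gaps, intervals as deposited, wider regions only, the window, the chromosomes, isolated genes and the point from which distance is taken. Loci near starts and near far ends were set apart, and the longer mark per gene counted, after the data were seen.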

Additional observations from a re-analysis of the deposited data

How the results depend on the processing

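Values are given as shared, H3K4me1-only and H3K4me2-only loci in this order unless named. An overlap of at least 50% of the narrower region gave 73.8% of H3K4me1 and 54.5% of H3K4me2 regions with the other mark, and intervals as deposited 75.7% and 54.4%. Joining over gaps of up to 1 kb gave 77.7% and 61.3%, median widths of 2100 bp (shared) and 1200 bp (H3K4me2 only), 28.0% and 39.3% of these 2 classes at gene ends and 41.4% and 28.5% inside genes, and H3K27me3 on 9.04%, 8.72% and 25.7% of distal loci. Keeping only regions no narrower than their mark's median gave 63.8% and 46.1%, widths of 2400, 1050 and 1800 bp, shares at gene ends of 28.2%, 5.71% and 67.5%, 57.0% of H3K4me1-only and 18.8% of H3K4me2-only loci inside genes, distal H3K27me3 of 6.32% (shared) and 18.1% (H3K4me2 only), and 6322 genes nearest to a shared locus.

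A window of 2.5 kb gave 32.3%, 10.6% and 53.4% at gene ends and 39.8%, 56.3% and 23.04% inside genes. The 8947 genes with no other within 5 kb gave 10.2%, 1.85% and 23.2% at gene ends, 21.4%, 29.8% and 13.4% inside genes, and 5468 and 6554 genes nearest to shared and H3K4me2-only loci; fewer genes were counted there. The distance from the midpoint gave 53.5% of shared and 37.2% of H3K4me2-only loci inside genes and, as a choice made after seeing the data, 13.97%, 3.54% and 35.9% at gene ends. Without chromosome 8 and the disomic stretch of chromosome 15, 54.4% of H3K4me2 regions overlapped H3K4me1, shared loci had a median width of 1650 bp and 7.77% of distal ones held H3K27me3.

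The order of the classes in width, at gene ends and inside genes was the same in every setting run. For width, the place of shared loci follows in part from their definition in each setting. The order in distal H3K27me3 changed only among the wider regions, where shared loci fell below H3K4me1-only loci, and that in numbers of nearest genes only with joining over gaps, where shared loci came before H3K4me2-only loci. The causes were not tested. No paired analysis was possible because each mark has 1 library. Depth and thresholds are unknown, so a locus without a mark is one without a called interval.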
